A study of Mus musculus with 20 samples.

Results

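The Schlafen genes measured here are the 7 rows of the expression table named Slfn1, Slfn2, Slfn3, Slfn4, Slfn5, Slfn8 and Slfn9, out of 78409 rows in all and 34373 rows with a count in at least 1 library. They were chosen by name and not by their values. All 7 had counts in each of the 20 libraries and all 7 passed the filter on low values in every comparison, so no member was left out of any test.

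The study asked how airway fluid, and the small noncoding RNA RNY1 in it, changes macrophages. Wild-type bone marrow-derived macrophages (BMDMs) were grown from the marrow of female C57BL/6J mice, seeded at 200000 cells per well and used on day 7 of culture. They received PBS or a size-exclusion fraction of bronchoalveolar lavage fluid (BALF) from mice sensitized to ovalbumin and then challenged with it in the airway. There were 5 groups of 4 libraries: PBS, RNY1+/+ EVFx, RNY1-/- EVFx, RNY1+/+ ProteinFx and RNY1-/- ProteinFx. The genotype belongs to the mice that gave the fluid, whose RNY1 gene was intact or deleted by CRISPR in the whole animal, and the macrophages of all 5 groups carried no deletion. EVFx denotes the early fractions enriched in extracellular vesicles and ProteinFx the late fractions enriched in soluble protein. EVFx was given at 35000000 particles per µL and ProteinFx at 0.75 µg of protein per µL, after 5 days of storage at 4°C in both cases. Doses were thus equal between genotypes within a fraction, but a particle dose and a protein dose cannot be matched between fractions. The labels give no mouse age and place all libraries in a single batch. No source used here states if replicate libraries stand for different animals, different fluid pools or only different wells. The p-values therefore reflect only the spread between these libraries, which may be technical.

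Schlafen genes encode a family found in mammals and expanded in rodents, with short, intermediate and long forms that share an N-terminal core. The long forms add a helicase-like C-terminal part. Family members restrain the growth of lymphocytes and myeloid cells, several act on transfer RNA or restrict viruses, and many are switched on by type I interferon, which signals through the kinases JAK1 and TYK2 to a transcription factor complex that binds interferon-stimulated response elements in promoters.

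The 7 genes lie side by side on chromosome 11 (GRCm38) within 264 kb, from base 82951349 to base 83215154. Their order is Slfn5 on the plus strand, Slfn9 and Slfn8 on the minus strand, then Slfn2, Slfn1, Slfn4 and Slfn3 on the plus strand. The longest annotated coding sequences sort them by size. Slfn1 with 337 codons and Slfn2 with 378 codons are short forms. Slfn4 with 602 codons and Slfn3 with 640 codons are intermediate. Slfn5 with 884 codons and Slfn8 and Slfn9 with 910 codons each are long.

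Promoters of all 7 members were found in RefSeq (GRCm38.p6, 250 bases before to 50 bases after the start site). They were searched for a fixed pattern and for words that members share. The core of the interferon-stimulated response element was searched as GAAA, any 2 bases, then GAAA, on both strands. It was present in 3 of 7 members, the long forms, against 3.44% of 32851 mouse promoters and 15 of 22 genes with a promoter in a list of interferon-stimulated genes. Each member was scored on a single promoter, and the share over all promoters counts every entry. A listed gene counted if any of its promoters matched, which can only raise the share of that list. The 3 stretches are shown because they separate the long forms from the rest of the family, with the match in capitals. The Slfn8 and Slfn9 matches read on the opposite strand and lie 48 and 45 bases before the start site. That of Slfn5 lies 155 bases before its RefSeq start site. The GENCODE annotation, which gave the gene positions above, starts Slfn5 further upstream, at base 82951349. The Slfn5 match thus lies before the RefSeq start but inside the gene as GENCODE places it.
Slfn5 (chr11:82951922-82951981, plus strand): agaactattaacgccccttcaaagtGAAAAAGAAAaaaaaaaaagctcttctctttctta
Slfn8 (chr11:83020824-83020883, minus strand): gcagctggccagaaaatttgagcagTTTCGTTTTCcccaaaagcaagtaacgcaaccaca
Slfn9 (chr11:82991841-82991900, minus strand): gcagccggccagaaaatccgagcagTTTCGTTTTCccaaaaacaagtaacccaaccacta

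The short and intermediate forms had no match to that core in this window but shared a word of 9 bases, found by comparing the members' promoters with each other after the sequences had been seen. The search took the longest word that at least 4 members hold. Its presence in 4 members was thus set by the search, and its share over all promoters is only a description. ACTTCCTGG stood in the gene's direction between 74 and 42 bases before the start site in Slfn1, Slfn2, Slfn3 and Slfn4, and in 277 of 32851 promoters (0.843%) on either strand. Its reverse, CCAGGAAGT, holds the GGAA core that ETS-family factors recognise, which include PU.1 of macrophages. The capitals mark this word.
Slfn1 (chr11:83116721-83116779, plus strand): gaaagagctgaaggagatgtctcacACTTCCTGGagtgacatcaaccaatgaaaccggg
Slfn2 (chr11:83065032-83065090, plus strand): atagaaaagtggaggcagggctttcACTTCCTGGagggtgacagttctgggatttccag
Slfn3 (chr11:83191263-83191321, plus strand): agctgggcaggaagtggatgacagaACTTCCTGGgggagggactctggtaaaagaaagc
Slfn4 (chr11:83175088-83175146, plus strand): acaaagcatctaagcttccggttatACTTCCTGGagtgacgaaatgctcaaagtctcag

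Over the whole window, the Slfn8 and Slfn9 promoters were 80.8% identical (252 of 312 aligned columns), and each of the other 20 pairs of members was at most 53.0% identical. These matches describe the letters in the window and were not tied to binding in these cells. Holding the response element core did not sort the members by the size of their rise. Slfn4, which rose most, and Slfn2, which rose least in 3 of 4 treatments, both lacked it. With RNY1+/+ EVFx the smallest rises were those of Slfn9 and Slfn5, which hold it.

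Libraries held between 2510005 and 8277366 counts (median 5456425), where a count is a molecule because duplicates were removed by molecular identifier. A count of 3 corresponded to 0.362 to 1.2 CPM (counts scaled to the library total). The cells carried the macrophage program: all 8 macrophage markers listed had a mean of at least 3 CPM in every group, with a summed level between 8567 and 13490 CPM. Markers of eosinophils, B cells and dendritic cells summed to at most 3.78 CPM in any library, T cell markers to at most 9.43 CPM and airway epithelial markers to at most 20.7 CPM. Of the 8 neutrophil markers listed, 2 or 3 had a mean of 3 CPM or more, and their sum was 269 to 329 CPM in PBS, 140 to 263 CPM with EVFx and 197 to 349 CPM with ProteinFx. Most of that sum was S100a8 and S100a9 (means of 152 and 99.1 CPM), which monocytes and macrophages can also express, 0 to 3 of the 8 markers were at 0 in a group, and their part in the Schlafen values was not tested.

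**Figure D1:**
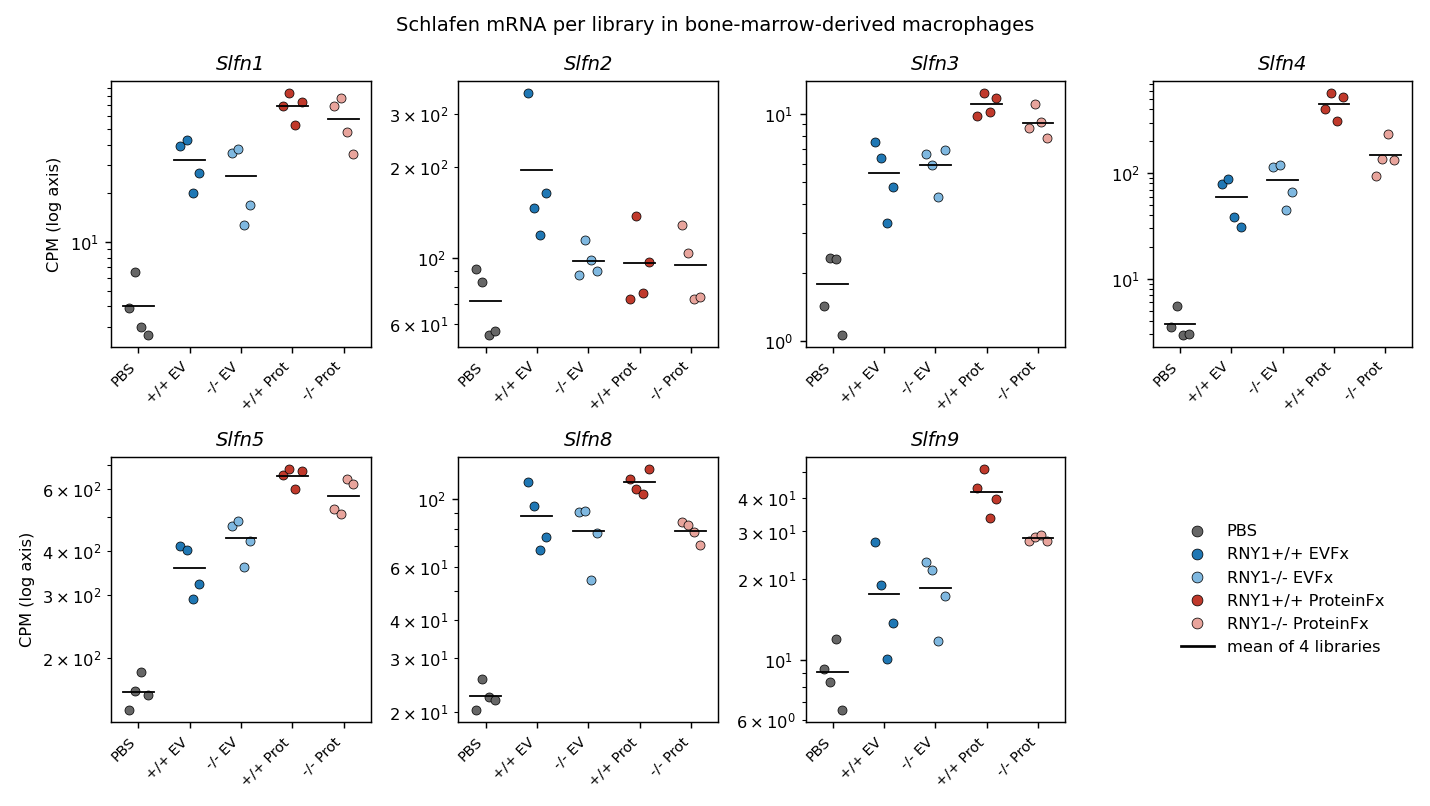
Level of each Schlafen gene in every library, in CPM on a log axis with its own range per gene. Points are libraries coloured by group and bars are means of 4. In Slfn1, Slfn3, Slfn4, Slfn5 and Slfn8 all 16 treated libraries sit above all 4 PBS libraries, whereas for Slfn2 only the RNY1+/+ EVFx libraries are all above PBS.

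The short forms behaved unlike each other. Slfn1, a growth-restraining gene first described in thymocytes, was at 3.89, 6.49, 2.97 and 2.67 CPM in the PBS libraries. It was at 39.4, 43.0, 20.2 and 26.6 CPM with RNY1+/+ EVFx and at 35.5, 37.8, 12.8 and 16.8 CPM with RNY1-/- EVFx. With ProteinFx it reached 69.5, 83.4, 53.0 and 73.2 CPM from RNY1+/+ fluid and 69.7, 77.8, 47.8 and 35.0 CPM from RNY1-/- fluid. Every treated library was above every PBS library, the order of group means was RNY1+/+ ProteinFx, RNY1-/- ProteinFx, RNY1+/+ EVFx, RNY1-/- EVFx and PBS, and neighbours in that order overlapped except RNY1-/- EVFx and PBS.

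Slfn2, which keeps resting T cells and monocytes quiescent, was already present without fluid, at 91.8, 83.0, 55.4 and 56.8 CPM in PBS. It was at 353, 146, 119 and 164 CPM with RNY1+/+ EVFx. Those libraries, a mean of 196 ± 107 CPM (SD, n = 4), did not overlap with PBS or with RNY1-/- EVFx, and library 1 was far above the other 3. Slfn2 was at 87.8, 115, 98.0 and 90.6 CPM with RNY1-/- EVFx. It was at 72.9, 137, 76.2 and 96.5 CPM with RNY1+/+ ProteinFx and at 129, 104, 72.9 and 74.2 CPM with RNY1-/- ProteinFx. These 3 groups overlapped each other and PBS, so that 10 of 16 treated libraries exceeded all PBS libraries.

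The intermediate forms both rose with all treatments. Slfn4, a myeloid gene known to respond to interferon and Toll-like receptor ligands, was at 3.48, 5.56, 2.97 and 3.03 CPM in PBS. It was at 78.8, 88.6, 38.4 and 31.3 CPM with RNY1+/+ EVFx and at 114, 120, 45.2 and 65.9 CPM with RNY1-/- EVFx. ProteinFx from RNY1+/+ mice took it to 408, 570, 309 and 524 CPM, and ProteinFx from RNY1-/- mice to 93.2, 137, 236 and 132 CPM. The lowest RNY1+/+ ProteinFx library was above the highest library of all other groups, and the RNY1-/- ProteinFx libraries overlapped with those of RNY1-/- EVFx.

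Slfn3, studied mostly in intestinal epithelial differentiation, was scarce in PBS at 1.43, 2.32, 2.29 and 1.07 CPM, or 6 to 15 counts per library. Its levels were 7.50, 6.38, 3.30 and 4.77 CPM with RNY1+/+ EVFx and 6.63, 5.96, 4.31 and 6.90 CPM with RNY1-/- EVFx. They were 9.76, 12.3, 10.2 and 11.7 CPM with RNY1+/+ ProteinFx and 8.60, 11, 9.16 and 7.78 CPM with RNY1-/- ProteinFx. All 8 ProteinFx libraries lay above all 8 EVFx libraries, narrowly so at the boundary of 7.78 against 7.50 CPM.

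Slfn5 is a long form induced by interferon in many cell types. It was at 142, 161, 182 and 157 CPM in PBS, at 415, 404, 293 and 323 CPM with RNY1+/+ EVFx and at 471, 487, 362 and 427 CPM with RNY1-/- EVFx. It was at 658, 684, 602 and 675 CPM with RNY1+/+ ProteinFx and at 527, 510, 642 and 618 CPM with RNY1-/- ProteinFx. The PBS, EVFx and ProteinFx libraries formed 3 bands that did not overlap, and within each fraction the genotypes overlapped.

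Slfn8 was at 20.2, 25.6, 22.4 and 21.9 CPM in PBS, and every treated library was above that range. It was at 114, 94.7, 68.2 and 75.3 CPM with RNY1+/+ EVFx and at 90.9, 91.4, 54.1 and 77.5 CPM with RNY1-/- EVFx. It was at 116, 108, 104 and 126 CPM with RNY1+/+ ProteinFx and at 84.4, 82.2, 77.8 and 70.7 CPM with RNY1-/- ProteinFx. The ProteinFx genotypes did not overlap, while all other treated groups overlapped with their neighbours in the order of means.

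Slfn9, the near copy of Slfn8, was at 9.32, 8.32, 12 and 6.53 CPM in PBS. It was at 27.5, 19.1, 10.1 and 13.7 CPM with RNY1+/+ EVFx and at 23.1, 21.6, 11.8 and 17.2 CPM with RNY1-/- EVFx. It was at 43.3, 51.2, 33.7 and 39.5 CPM with RNY1+/+ ProteinFx and at 27.6, 28.6, 29.2 and 27.8 CPM with RNY1-/- ProteinFx. A single library of each EVFx group lay within the PBS range, and the ProteinFx genotypes were separate from each other and from PBS.

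Slfn8 and Slfn9 share sequence at their 3′ ends, where these libraries are read. Of the 50-base words in the last 500 bases of their transcripts, 25.5% for Slfn8 and 15.8% for Slfn9 also occur in each other or in the pseudogene Slfn10-ps, and 12.5% of those of Slfn3 occur in Slfn4. The authors split reads with several positions, and fractional counts were present in 18 of 20 libraries for Slfn8 and for Slfn9, in 17 for Slfn5, in 9 each for Slfn2 and Slfn3, in 5 for Slfn4 and in 0 for Slfn1, so part of the level of Slfn3, Slfn8 and Slfn9 could belong to a relative. Words of the Slfn1, Slfn2, Slfn4 and Slfn5 ends occurred in no other annotated gene's transcripts. The other positions of the reads behind the fractional counts of Slfn2, Slfn4 and Slfn5 were not traced.

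The comparison of each treatment with PBS asks what the fluid did to the cells. Tests used edgeR's quasi-likelihood method with Benjamini-Hochberg adjustment over all genes tested, and a gene was called differentially expressed (DEG) if its log2 fold change was beyond 1 in size with an adjusted p below 0.05. All differences given are log2 fold changes with standard errors (SE). In RNY1+/+ EVFx, 7 of 7 members were higher DEGs, where 8.24% of 10797 genes tested were. In RNY1-/- EVFx 6 of 7 were (9.01% of 10730 genes), in RNY1+/+ ProteinFx 6 of 7 (8.96% of 10834) and in RNY1-/- ProteinFx 6 of 7 (6.31% of 10856). The median over the members was 1.82, 1.99, 2.50 and 1.91 in the same order, against -0.03 over all genes in each. The filter asked for a mean of 3 CPM over the libraries compared. Slfn3, at a mean of 1.78 CPM in PBS, passed it only through its treated libraries. The 4 comparisons share the PBS libraries and are not independent of each other. In libraries made from whole wells, more cells expressing a gene and more RNA per cell cannot be told apart.

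Slfn4 had the largest rise of the members in each treatment. It rose by 4.12 (SE 0.39, adjusted p = 9e-06) with RNY1+/+ EVFx and 4.73 (SE 0.35, adjusted p = 1e-06) with RNY1-/- EVFx. With ProteinFx it rose by 7.04 (SE 0.27, adjusted p = 3.4e-09), or 132-fold, from RNY1+/+ mice and 5.35 (SE 0.35, adjusted p = 1.8e-06), or 40.8-fold, from RNY1-/- mice. The PBS libraries behind these folds held 13 to 36 Slfn4 counts each. Slfn1 followed, with rises of 3.16 (SE 0.31), 2.90 (SE 0.39), 4.25 (SE 0.25) and 3.87 (SE 0.31) with RNY1+/+ EVFx, RNY1-/- EVFx, RNY1+/+ ProteinFx and RNY1-/- ProteinFx, and adjusted p from 9.5e-08 to 9.5e-05.

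The other induced members rose less. In the same order of treatments, Slfn3 rose by 1.82, 1.99, 2.78 and 2.42, Slfn5 by 1.34, 1.69, 2.20 and 1.91, and Slfn8 by 2.14, 2.04, 2.50 and 1.87. Slfn9 rose by 1.17, 1.29, 2.39 and 1.72. All 16 of these values were DEGs. The EVFx rises of Slfn9 were nearest the limit of 1 and fell below it in 3 alternatives, with RNY1+/+ EVFx to 0.87 without its library 1 and 0.99 under total-count scaling, and with RNY1-/- EVFx to 0.92 once GC and length trends were removed, with adjusted p under 0.05 in each. All 16 treated libraries were above all 4 PBS libraries for 5 of 7 members, which held for 6.45% of 10640 genes. No such share over all genes was counted for the separations between pairs of groups given elsewhere. The 5 members include Slfn3, which passed the filter only through its treated libraries.

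Slfn2 was the exception. It rose by 1.63 (SE 0.32, adjusted p = 0.0019) with RNY1+/+ EVFx and, below the DEG limit, by 0.68 (SE 0.17, adjusted p = 0.005) with RNY1-/- EVFx, where 27.7% of genes were higher by adjusted p alone. Its value with RNY1+/+ ProteinFx was 0.58 (SE 0.22, adjusted p = 0.043), where 25.9% of genes were higher by adjusted p alone, and it passed with 5 of 9 other settings and 4 of 8 fits that left out a library. With RNY1-/- ProteinFx it was 0.47 (SE 0.21, adjusted p = 0.11). There it passed with 2 of 9 other settings, no filter (0.50) and a block for replicate number (0.46). It passed in 0 of 8 fits that left out a library. Without RNY1+/+ EVFx library 1, its rise with RNY1+/+ EVFx was 1.17 and still a DEG.

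**Figure D2:**
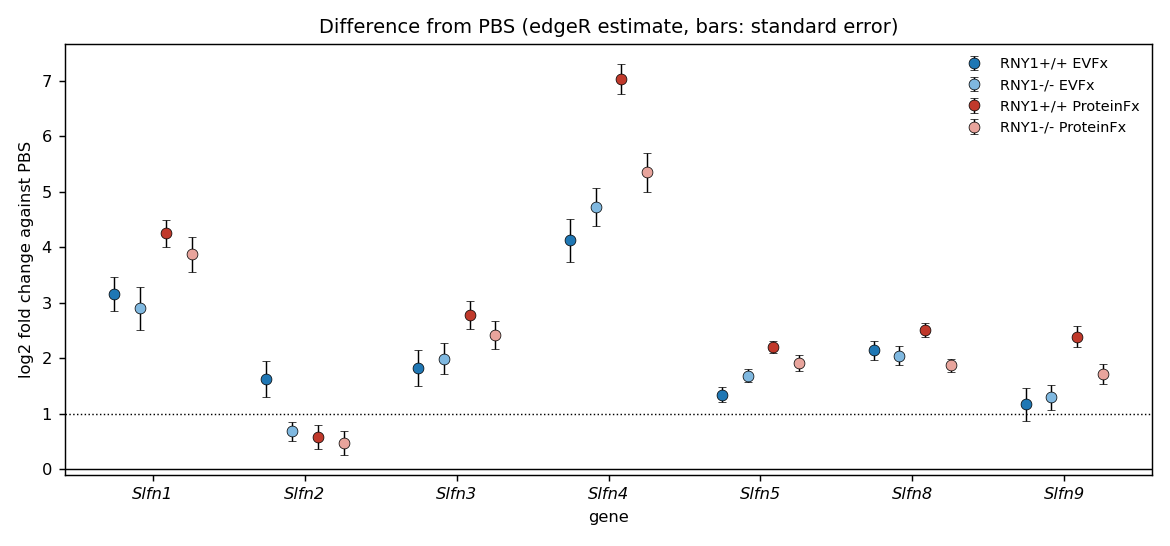
Log2 fold change of each member against PBS in the 4 treatments, with standard errors from edgeR. The dotted line marks the DEG limit of 1. Slfn4 reaches 7.04 with RNY1+/+ ProteinFx, and Slfn2 passes the limit only with RNY1+/+ EVFx, at 1.63.

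The comparison of RNY1-/- with RNY1+/+ ProteinFx asks whether the source genotype mattered for the protein-enriched fraction. Slfn4 was lower with RNY1-/- ProteinFx, at 150 ± 60.9 CPM (SD, n = 4) against 453 ± 118 CPM. It was the only member that was a lower DEG (1 of 7, where 1.17% of 10472 genes were), with a log2 fold change of -1.69 (SE 0.26, adjusted p = 0.0028 by edgeR), or 3.22-fold. Its 4 libraries per group did not overlap, and the difference was between -2.0 and -1.5 when any of the 8 libraries was left out.

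By adjusted p alone 3 of 7 members were lower, where 3.37% of genes were. Slfn8 fell by 0.62 (SE 0.11, adjusted p = 0.0046), from 114 ± 9.59 to 78.8 ± 6.06 CPM, and Slfn9 fell by 0.66 (SE 0.14, adjusted p = 0.013), from 41.9 ± 7.32 to 28.3 ± 0.742 CPM. In neither gene did the groups overlap, but the share of all genes separated in this way was not counted. The fall of Slfn9 did not pass when all 20 libraries shared one fit (-0.66, adjusted p = 0.074). Slfn1 (-0.35, SE 0.20, adjusted p = 0.38), Slfn3 (-0.34, SE 0.17, adjusted p = 0.29), Slfn5 (-0.27, SE 0.12, adjusted p = 0.24) and Slfn2 (-0.09, SE 0.21, adjusted p = 0.87, and 0.00 with total-count scaling) did not pass.

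Within EVFx the genotype of the source gave another picture. By edgeR 0 of 7 members were DEGs, as by DESeq2, where 2.35% of 10322 genes were DEGs in either direction. At an unadjusted p under 0.05 there were 2 of 7, the same number as by adjusted p alone, where 52.1% of genes passed. Slfn2 fell by 0.94 (SE 0.27, adjusted p = 0.011), from 196 ± 107 to 97.8 ± 12.1 CPM with no overlap. The fall was 0.50 without RNY1+/+ EVFx library 1 and passed the adjusted p in 8 of 8 fits that left out a library. Slfn5 was higher by 0.35 (SE 0.12, adjusted p = 0.024), with overlapping groups, and this difference passed in 3 of 8 such fits and was 0.28 with total-count scaling and 0.20 with GC and length trends removed, both without passing.

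The remaining members did not pass between EVFx genotypes. Slfn4 differed by 0.62 (SE 0.33, adjusted p = 0.13), with wide spread in both groups, and passed without RNY1-/- EVFx library 3 (0.80, adjusted p = 0.038) and with no filter (0.58). Slfn1 differed by -0.23 (SE 0.29), Slfn3 by 0.18 (SE 0.23), Slfn8 by -0.09 (SE 0.17) and Slfn9 by 0.14 (SE 0.25), with adjusted p from 0.52 to 0.67, and the signs of Slfn3 and Slfn9 turned with GC and length trends removed (-0.07 and -0.14).

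An interaction term in a fit of 16 libraries gave the ProteinFx genotype difference minus the EVFx genotype difference. Slfn4 was the only lower DEG among the members (1 of 7, where 2.46% of 10443 genes were), with -2.31 (SE 0.48, adjusted p = 0.0041). By adjusted p alone 2 of 7 were lower, where 16.2% of genes were, since Slfn5 also passed with -0.63 (SE 0.18, adjusted p = 0.015). Both passed in 16 of 16 fits that left out a library. For comparison, 11 of 28 interferon-stimulated genes listed below were lower DEGs in the interaction, with a median of -0.57 beside -0.53 for the members. Slfn9 (-0.80, SE 0.32, adjusted p = 0.057), Slfn8 (-0.53, SE 0.22, adjusted p = 0.065), Slfn2 (0.84, SE 0.38, adjusted p = 0.089) and Slfn3 (-0.52, SE 0.29, adjusted p = 0.16) did not pass. Of 16 fits that left out a library, Slfn9 passed in 4, Slfn8 in 2 and Slfn2 in 2. The Slfn2 value lay between 0.39 and 1.07 over these fits. Slfn9 was a lower DEG without RNY1+/+ EVFx library 1 (-1.10), and Slfn2 a higher DEG without RNY1+/+ EVFx library 3 (1.02) or RNY1+/+ ProteinFx library 2 (1.07). Slfn1 (-0.11, SE 0.40, adjusted p = 0.84) changed sign with total-count scaling (0.05).

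**Figure D3:**
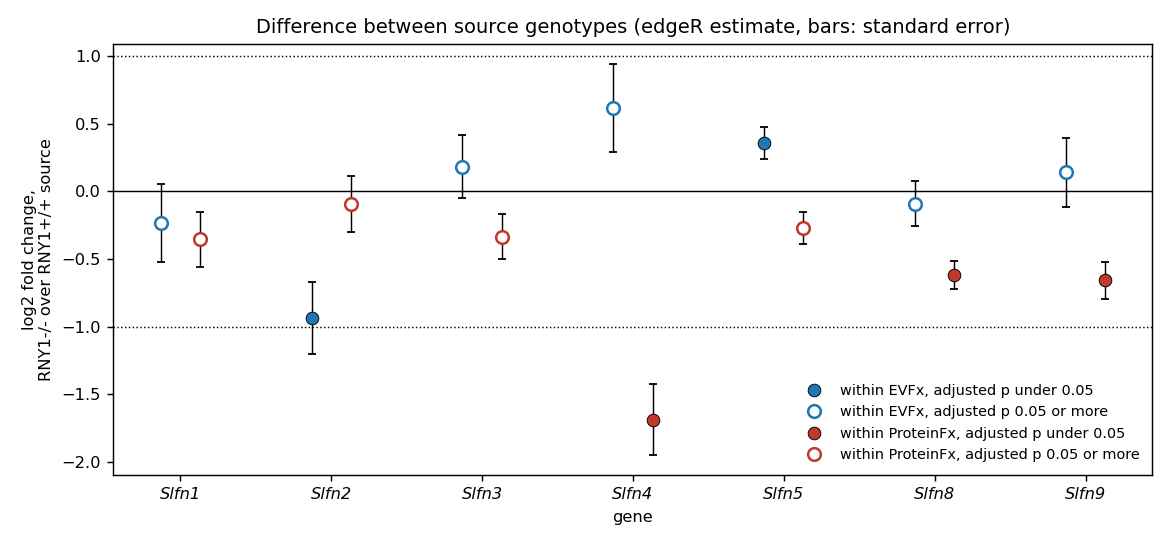
Log2 fold change of RNY1-/- over RNY1+/+ source within EVFx (blue) and within ProteinFx (red), with standard errors, and filled points where edgeR's adjusted p is under 0.05. Slfn4 lies at -1.69 in ProteinFx and 0.62 in EVFx, while Slfn2 lies at -0.94 in EVFx and -0.09 in ProteinFx.

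Comparing fractions within a genotype sets a protein dose beside a particle dose, so the values describe these preparations as given. For RNY1+/+ fluid, 3 of 7 members were higher DEGs with ProteinFx (6.71% of 10443 genes were), namely Slfn4 at 2.92 (SE 0.28, adjusted p = 5.8e-07), Slfn9 at 1.22 (SE 0.21, adjusted p = 0.00018) and Slfn1 at 1.09 (SE 0.19, adjusted p = 0.00014). By adjusted p alone 6 of 7 were higher, where 31.1% of genes were, since Slfn3 (0.96, SE 0.21), Slfn5 (0.87, SE 0.11) and Slfn8 (0.37, SE 0.13) also passed. With GC and length trends removed Slfn9 (0.87) and Slfn1 (0.87) still passed but were no longer DEGs, and Slfn8 (0.03) did not pass. Slfn1 was also below the DEG limit without RNY1+/+ EVFx library 3 (0.94) or 4 (0.99). Slfn3 became a higher DEG without RNY1+/+ EVFx library 1 (1.14) or 2 (1.02) or RNY1+/+ ProteinFx library 1 (1.02) or 3 (1.01). Slfn2 went the other way and was a lower DEG (1 of 7, where 6.82% of genes were), at -1.04 (SE 0.28, adjusted p = 0.0047). It was under the DEG limit without RNY1+/+ EVFx library 1 (-0.59) and without RNY1+/+ ProteinFx library 1 (-0.92) or 3 (-0.94).

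For RNY1-/- fluid the calls were fewer, and only the interaction above tests that difference between genotypes. By edgeR 0 of 7 members were DEGs, as by DESeq2, where 8.97% of 10421 genes were DEGs in either direction, and 3 of 7 had an unadjusted p under 0.05. Slfn1 alone was higher by adjusted p (1 of 7, where 14.6% of genes were), at 0.97 (SE 0.30, adjusted p = 0.031), and it passed in 4 of 8 fits that left out a library. The other 6 lay between -0.21 (Slfn2, SE 0.16) and 0.61 (Slfn4, SE 0.31), with adjusted p from 0.095 to 0.41. The libraries of Slfn3, Slfn5 and Slfn9 did not overlap between these fractions, but the share of all genes separated in this way was not counted. With total-count scaling these genes passed at 0.61 (adjusted p = 0.026), 0.39 (adjusted p = 0.025) and 0.59 (adjusted p = 0.023), where the median of all genes was 0.19.

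The interferon pathway was read from a list ordered by role. Ligands were at the limit of detection: 6 of 8 had 0 counts in all 20 libraries, which allows up to 0.362 to 1.2 CPM, Ifng had 1 count in a single library, and Ifnb1, the gene of interferon-β, had no count in PBS and at most 5 in any treated library. Of the receptor chains, 0 of the 5 tested were DEGs against PBS by edgeR, and 1 to 4 passed by adjusted p alone. Ifngr1, a chain of the interferon-γ receptor, fell by 0.53 and Il10rb, a chain of the interferon-λ and interleukin-10 receptors, fell by 0.68 with RNY1+/+ EVFx, while Ifngr2 rose by 0.64. With RNY1-/- EVFx Il10rb fell by 0.65 and Ifngr2 rose by 0.33, and Ifngr1 (-0.17) did not pass. With RNY1+/+ and RNY1-/- ProteinFx the values were 0.15 and 0.24 for Ifngr1 and 0.08 and -0.01 for Il10rb, without passing. Ifngr2 rose by 0.46 with RNY1+/+ ProteinFx and did not pass with RNY1-/- ProteinFx (0.24). Ifnar1, a chain of the type I interferon receptor named after its values were seen, rose by 0.38, 0.50, 0.92 and 0.44 with RNY1+/+ EVFx, RNY1-/- EVFx, RNY1+/+ ProteinFx and RNY1-/- ProteinFx, and fell by 0.47 (SE 0.10, adjusted p = 0.017) with RNY1-/- than with RNY1+/+ ProteinFx.

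Of the kinases, Jak2 rose by 2.40, 2.38, 2.65 and 2.1 with RNY1+/+ EVFx, RNY1-/- EVFx, RNY1+/+ ProteinFx and RNY1-/- ProteinFx. Tyk2 rose by 1.14 with RNY1+/+ EVFx and by 0.72 with RNY1-/- EVFx, and was 0.06 and 0.22 without passing in the ProteinFx groups, and Jak1 rose by 0.35 to 0.63. Among 10 transcription factors, 4 were higher DEGs in each treatment and 1 was a lower DEG with RNY1-/- EVFx and with RNY1+/+ ProteinFx. That was Irf8, a factor of myeloid development named after its values were seen, which fell by 0.97, 1.38, 1.1 and 0.83 in the order RNY1+/+ EVFx, RNY1-/- EVFx, RNY1+/+ ProteinFx and RNY1-/- ProteinFx, all with adjusted p under 0.05. Irf7, the factor that amplifies type I interferon, rose by 2.36, 2.01, 2.49 and 2.18 in the same order, and Stat2, a part of the interferon-activated complex, by 2.23, 1.93, 2.36 and 2.03.

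Feedback inhibitors also rose. Usp18, which removes ISG15 from proteins and dampens the receptor, rose by 3.13, 2.85, 3.56 and 2.45. Socs3, an inhibitor of JAK kinases, had a mean of 0.823 CPM in PBS and of 31.5, 14.2, 50.3 and 18.3 CPM in the treatments. Pias1, a SUMO ligase of the pathway, was between -0.19 and 0.41. Of 28 interferon-stimulated genes in the table (29 listed), 28, 25, 28 and 27 were higher DEGs in the same order, with medians of 3.21, 3.11, 3.44 and 2.77, beside 1.82, 1.99, 2.50 and 1.91 for the Schlafen members.

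Between ProteinFx genotypes, 5 of the 28 interferon-stimulated genes were lower DEGs and 18 of 28 were lower by adjusted p alone, with a median of -0.59, beside -0.35 for the Schlafen members and 0.02 for all genes. Usp18 fell by 1.09 (SE 0.13), Socs3 by 1.55 (SE 0.23) and Jak2 by 0.54 (SE 0.12), whereas Stat2 (-0.32, SE 0.13) and Irf7 (-0.29, SE 0.13) did not pass. Between EVFx genotypes the interferon-stimulated list had 0 DEGs by edgeR, 8 genes higher and 4 lower by adjusted p alone, 15 of 28 at an unadjusted p under 0.05, and a median of 0.05.

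**Figure D4:**
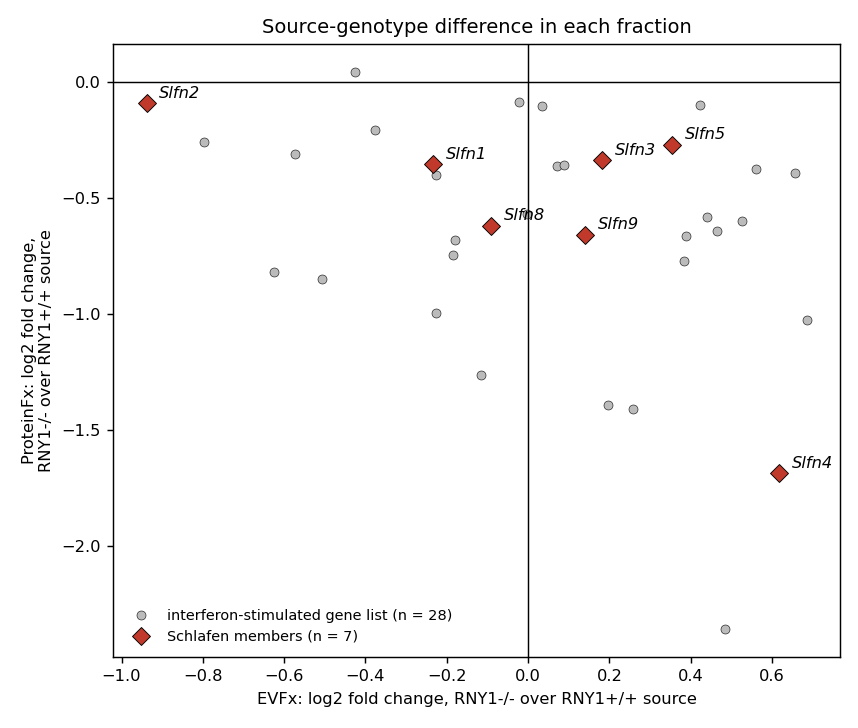
Log2 fold change of RNY1-/- over RNY1+/+ source within EVFx (horizontal) and within ProteinFx (vertical) for the 7 Schlafen genes (diamonds) and 28 interferon-stimulated genes (grey). All 7 members lie below 0 on the vertical axis, from -0.09 (Slfn2, 0.00 with total-count scaling) to -1.69 (Slfn4), while on the horizontal axis they spread from -0.94 to 0.62.

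Over the 20 libraries, log2 CPM of 6 members moved closely together and that of Slfn2 did not. Pearson's r among Slfn1, Slfn3, Slfn4, Slfn5, Slfn8 and Slfn9 was between 0.852 and 0.980 in all 15 pairs, whereas Slfn2 gave 0.280 to 0.545 with the other 6. The libraries share the 5 groups, so these values are a description of the group pattern. Among 10640 genes, the 3 most like each member were for Slfn4 Cmpk2 (0.988), Phf11a (0.987) and A330040F15Rik (0.986), for Slfn8 Mx1 (0.993), Rsad2 (0.990) and Phf11b (0.987), and for Slfn5 Gvin1 (0.996), Gvin2 (0.995) and Ifi203 (0.994). For Slfn1 they were Parp11 (0.984), Fgl2 (0.982) and Samhd1 (0.977), for Slfn3 Iigp1 (0.972), Ifi203 (0.968) and Gm8369 (0.966), and for Slfn9 I830077J02Rik (0.981), Tnfsf10 (0.976) and ENSMUSG00000079808 (0.970). The genes most like Slfn2 were Tap2, a transporter for antigen presentation (0.855), Keap1 (0.842) and Arl5c (0.838). Ifi203 was among the 3 for both Slfn3 and Slfn5, and no Schlafen gene was among the 3 of another.

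Within 200 kb on either side of the outermost members, 12 other protein-coding genes are annotated, Slfn14 among them, and 6 passed the filter against PBS. Of these 6, 1 was a higher DEG with RNY1+/+ EVFx, where 8.24% of all genes were, and 1 with RNY1-/- EVFx, where 9.01% were. With each ProteinFx 0 of 6 were DEGs. Rffl, a ubiquitin ligase gene beyond Rad51d on the Slfn5 side, rose by 1.14 (SE 0.15) with RNY1+/+ EVFx and 1.31 (SE 0.14) with RNY1-/- EVFx, and below the DEG limit by 0.83 (SE 0.16) with RNY1+/+ ProteinFx. No other neighbour was a DEG, and Lig3 rose below the DEG limit with RNY1-/- EVFx, by 0.55 (SE 0.19, adjusted p = 0.03 by edgeR). Rad51d, the nearest tested gene on that side, was between -0.46 and 0.07, and Ap2b1 on the Slfn3 side was between -0.49 and 0.14 over the 4 treatments. Ap2b1 passed the adjusted p only with RNY1-/- ProteinFx, where it was lower (-0.49, SE 0.15, adjusted p = 0.031 by edgeR).

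**Figure D5:**
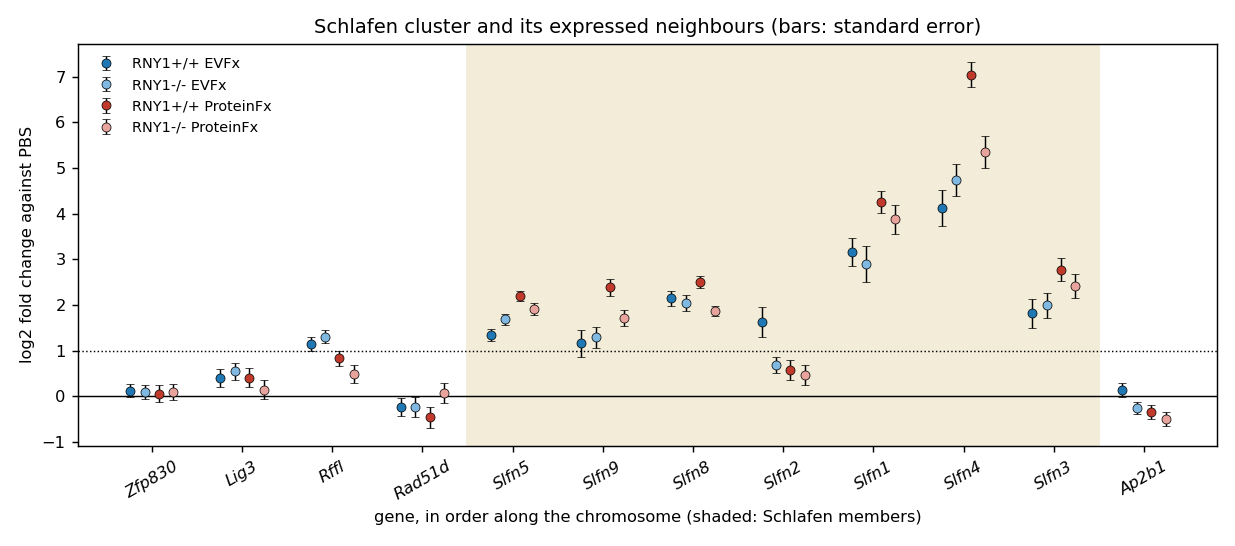
Log2 fold change against PBS of the 7 Schlafen genes (shaded) and 5 of the 6 tested neighbours, in their order along chromosome 11 and not to scale, with standard errors. Within the shaded block Slfn2 sits between Slfn8 and Slfn1, with lower values than either in every treatment.

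Beyond the members, 5 rows carry a Schlafen name. Slfn14, the remaining protein-coding member of the cluster, had 1 count in each of 2 libraries and Slfnl1 had none in any. The pseudogene Slfn10-ps was between 1.23 and 4.52 CPM, and Slfn5os had at most 6 counts. Slfnlnc, a long noncoding RNA, was measurable throughout, at 87.4 to 150 CPM in PBS. It differed by 0.24 (SE 0.16, adjusted p = 0.27) with RNY1+/+ EVFx and rose by 0.74 (SE 0.16, adjusted p = 0.0022) with RNY1-/- EVFx, by 1.03 (SE 0.16, adjusted p = 0.00029) with RNY1+/+ ProteinFx and by 1.00 (SE 0.21, adjusted p = 0.0052) with RNY1-/- ProteinFx. It was higher by 0.51 (SE 0.08, adjusted p = 0.00047) with RNY1-/- than with RNY1+/+ EVFx, the direction opposite to that of Slfn2, and differed by -0.02 (SE 0.15) between ProteinFx genotypes.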

How the data were processed

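RNA of 20 BMDM libraries was sequenced from the 3′ end with molecular identifiers. The authors deposited expected counts (reads with several positions shared as fractions) and CPM, made per the labels and methods with fastp 0.24.0, STAR 2.7.11, deduplication by molecular identifier and strand-specific featureCounts (Subread 2.1.1), on GRCm39 per the submitters' processing notes. Here counts were rounded, filtered with filterByExpr and a mean CPM of 3, and normalised by TMM. Quasi-likelihood tests of edgeR 4.0.16 (R 4.3.3) used the libraries compared. Dividing a log2 fold change by the root of F gave its SE. Alternatives were DESeq2 1.42.0, other scalings, filters and fits, a replicate block, and each library left out. Code was tested on simulated data.

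Members, lists and tests were chosen with earlier results of these data known. All members were named, with neighbours within 200 kb, the 3 most alike genes, and up to 3 of the most abundant genes per pathway role. Some genes are not reported here. Positions and 3′ words came from GENCODE on GRCm38, promoters from RefSeq. Same-numbered libraries deviated together (r over 0.1 in all 4 pairs) only between PBS and RNY1-/- EVFx (0.132 to 0.384) and between the RNY1-/- fractions (0.220 to 0.404), where the block changed no DEG call of a member. Among all numbers, the same number gave the highest r in 1 of 4 and in 4 of 4 pairs, in that order.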

Additional observations from a re-analysis of the deposited data

Results flagged for a closer look

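The genotype difference of 2 members differed between fractions by the interaction test of edgeR. Slfn4 gave -2.31 (log2, adjusted p = 0.0041): it was lower with RNY1-/- than with RNY1+/+ source in ProteinFx (-1.69, no overlap between 4 and 4 libraries) and 0.62 without passing in EVFx. Slfn5 gave -0.63 (adjusted p = 0.015), from -0.27 without passing in ProteinFx and 0.35 in EVFx. Dixon's test on the 35 sets of 4 libraries passed for none, which with 4 values says little. Library 1 of RNY1+/+ EVFx was at 353 CPM of Slfn2 beside 119 to 164 CPM in the other 3. Without it, Slfn2 is given above against PBS, between EVFx genotypes and between RNY1+/+ fractions. For the Slfn2 interaction, only the range over fits that left out a library is given.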

How the results depend on the processing

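Counts of Schlafen DEGs stayed within 1.5 times the reported count for all 9 comparisons with DESeq2, housekeeping scaling (Rab14, Arpc2 and Cltc), both other filters, all 20 libraries in the fit, dropped fractions and the replicate block. Total counts gave 1 between EVFx genotypes and 1 between RNY1-/- fractions (0 reported in each). Removal of GC and length trends, chosen with earlier results known, gave 2 between RNY1+/+ fractions (4 reported, Slfn9 and Slfn1 lost) and 1 between RNY1-/- fractions. Adjusted p alone gave 2 between EVFx genotypes, 3 between ProteinFx genotypes, 7 and 1 between RNY1+/+ and RNY1-/- fractions and 2 in the interaction. Leaving out a library gave 0 to 1 between EVFx genotypes, 0 to 1 between RNY1-/- fractions, 1 to 2 in the interaction, 3 to 5 between RNY1+/+ fractions and 6 to 7 with RNY1+/+ EVFx against PBS. The DEG gained in the interaction was Slfn9 (lower) or Slfn2 (higher). The DEG gained between EVFx genotypes was Slfn2 and that between RNY1-/- fractions Slfn1, both near the limit of 1. Direction turned only in values that had not passed. With GC and length trends removed these were Slfn3 (-0.0685) and Slfn9 (-0.14) between EVFx genotypes and Slfn1 in the interaction (0.15). With total counts they were Slfn2 between ProteinFx genotypes (0.0023) and Slfn1 in the interaction (0.0538). Leave-one-out fits turned Slfn8 (-0.20 to 0.0488) and Slfn9 (-0.0311 to 0.42) between EVFx genotypes, Slfn2 between ProteinFx genotypes (-0.25 to 0.12) and Slfn1 in the interaction (-0.31 to 0.10). The cause was not tested. Total-count scaling moved the median of all genes against PBS to between -0.27 and -0.10, and to 0.11 between ProteinFx genotypes, 0.19 between RNY1-/- fractions and 0.16 in the interaction. In comparisons other than PBS with RNY1-/- EVFx and the RNY1-/- fractions, same-numbered libraries did not reach r over 0.1 in all 4 pairs. Between PBS and RNY1-/- ProteinFx, r was nevertheless 0.514, 0.626 and 0.646 for libraries 1, 2 and 3, and 0.0186 for library 4. Between RNY1+/+ fractions the block took Slfn2 to -0.94, below the DEG limit. Between EVFx genotypes Slfn4 (0.64) and Slfn1 (-0.29) passed the adjusted p with the block, and Slfn8 (-0.54) and Slfn9 (-0.83) did in the interaction. Slfn2 (0.46) did with RNY1-/- ProteinFx against PBS. Slfn3 (6 to 15 counts per PBS library), Slfn1 (13 to 42) and Slfn4 (13 to 36) rest on few counts in PBS, which limits the precision of their folds.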
